A study of Mus musculus with 12 samples.

Results

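The genes described here are 32 genes of glycolysis, of the pentose phosphate pathway and of their control in mouse CD4+ T cells. They were listed by symbol, from glucose uptake (Slc2a1, Slc2a3) through the glycolytic enzymes to lactate export (Slc16a1, Slc16a3), with the enzymes of the pentose phosphate pathway and the regulators Pfkfb3, Pdk1, Pdk3, Hif1a and Myc. All 32 were found among the 17523 genes of the table, and all 32 passed the filter on low values. RNA had been sequenced from naïve CD4+ T cells (CD62L+CD44-) and effector memory CD4+ T cells (TEM, CD62L-CD44hi) that were sorted from the spleens of unimmunized Gr/fr mice of the C57BL/6 strain, each split into YFP+ and YFP- cells, with 3 libraries in each of the 4 groups. In these mice the Csf2 locus, which encodes the cytokine GM-CSF, also expresses iCre recombinase and a blue fluorescent protein, and the Rosa26 locus carries a yellow fluorescent protein (YFP) that iCre switches on for good. YFP+ cells are thus cells with past or present activity of the Csf2 promoter, or their progeny, and the cells of every group, YFP- cells included, carry both alleles. The sorted CD4+ T cells of the study came from mice of 2 to 3 months of age.

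Glycolysis splits glucose to pyruvate in the cytosol. Pyruvate is reduced to lactate, which leaves the cell, or enters the mitochondrion through pyruvate dehydrogenase, which the pyruvate dehydrogenase kinases (PDK) switch off. The pentose phosphate pathway branches off at glucose 6-phosphate and provides NADPH and ribose 5-phosphate for nucleotides. Resting naïve T cells rely mostly on mitochondrial respiration, and T cell activation raises glucose uptake and glycolysis under the transcription factors MYC and HIF-1α.

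Each library held 40974124 to 57822269 reads on genes, and values are given as normalized counts, reads of a gene divided by the size factor of its library. The markers of cell state went with the labels: the summed level of 5 naïve markers was 277489 to 361459 in naïve and 87908 to 107156 in TEM libraries, and that of 5 effector memory markers was 5569 to 6877 and 103028 to 126053. Csf2 itself was at 139, 55.9 and 152 normalized counts in the YFP+ TEM libraries and at 3.94 or less in the other 9. Cells of 3 mice were sorted by the methods, and the labels do not name the mouse of a library. The libraries numbered 3 of all 4 groups held the Y-linked Ddx3y at 3869 to 4242 normalized counts and the other 8 at 1.06 or less, so number 3 marks male cells in every group, and comparisons were also fitted with the replicate number as a block. Markers of other cell types and of dividing cells also differed between the groups. Their part in the results below was not tested. Conventional dendritic cell markers (5 genes) summed to 7545 to 15464 in YFP- TEM, 446 to 948 in YFP+ TEM and 59.9 to 284 in naïve libraries. Plasmacytoid dendritic cell markers (9 genes) summed to 15013 to 23896, 8505 to 9558 and 6518 to 7461 in the same order. Of these, Siglech, Cox6a2 and Klk1 were at 3 reads or fewer in every YFP- naïve library, and Cox6a2 also in every YFP+ naïve library. The sum in YFP- naïve libraries thus came from the other genes of that list. The 9 markers of dividing cells summed to 31195 to 44112, 20481 to 26644 and 2719 to 3331 in the same order. In bulk RNA, fewer cells of a type and less RNA per cell cannot be told apart.

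Between TEM and naïve cells most steps of glycolysis differed, and they did so by very unequal amounts. Hexokinase 2 and the lactate exporter Slc16a3 rose the most, 6 genes from aldolase to phosphoglycerate mutase (Aldoa, Aldoc, Tpi1, Gapdh, Pgk1 and Pgam1) rose 1.32 to 4.38 times, the kinase gene Pdk1 fell, and the abundant Pkm, Ldha and Eno1 did not pass the test. Among YFP- cells 15 of the 32 genes were higher (46.9%) and 3 lower (9.38%) in TEM than in naïve cells at an adjusted p of 0.05 or less (limma, Benjamini-Hochberg over 15587 genes), against 29.9% higher and 19.9% lower over all genes tested. Among YFP+ cells 14 were higher (43.8%) and 3 lower (9.38%), against 24.7% and 16.7%. The median log2 fold change of the 32 genes was 0.31 in YFP- and 0.20 in YFP+ cells, beside 0.05 and 0.03 over all genes. TEM and naïve libraries did not overlap for 24 of the 32 genes (75.0%) in YFP- cells, where 59.0% of all genes did not, and for 16 in YFP+ cells, where 48.7% did not. The comparisons in YFP- and YFP+ cells share no library, and 12 of the genes were higher in both, which is 80.0% of those called in YFP- and 85.7% of those called in YFP+ cells. Over all genes these shares were 72.6% and 88.0%. Other scalings moved the balance over all genes: of the genes called in YFP- cells 4665 were higher and 3104 lower here, 3585 and 5925 after quantile normalization, and 5512 and 2044 after scaling to library totals, with an all-gene median log2 change of -0.20 and 0.19 in place of 0.05 (in YFP+ cells -0.14 and 0.15 in place of 0.03). Among the 32 genes 20 were then higher and 5 lower, and 22 and 1, in YFP- cells, with medians of 0.44 and 0.45, and 16 and 4, and 17 and 2, in YFP+ cells, with medians of 0.31 and 0.31. Adjusted p values below are from the same limma fit unless another setting is named, and fold changes are of log2(normalized count + 1).

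**Figure D1:**
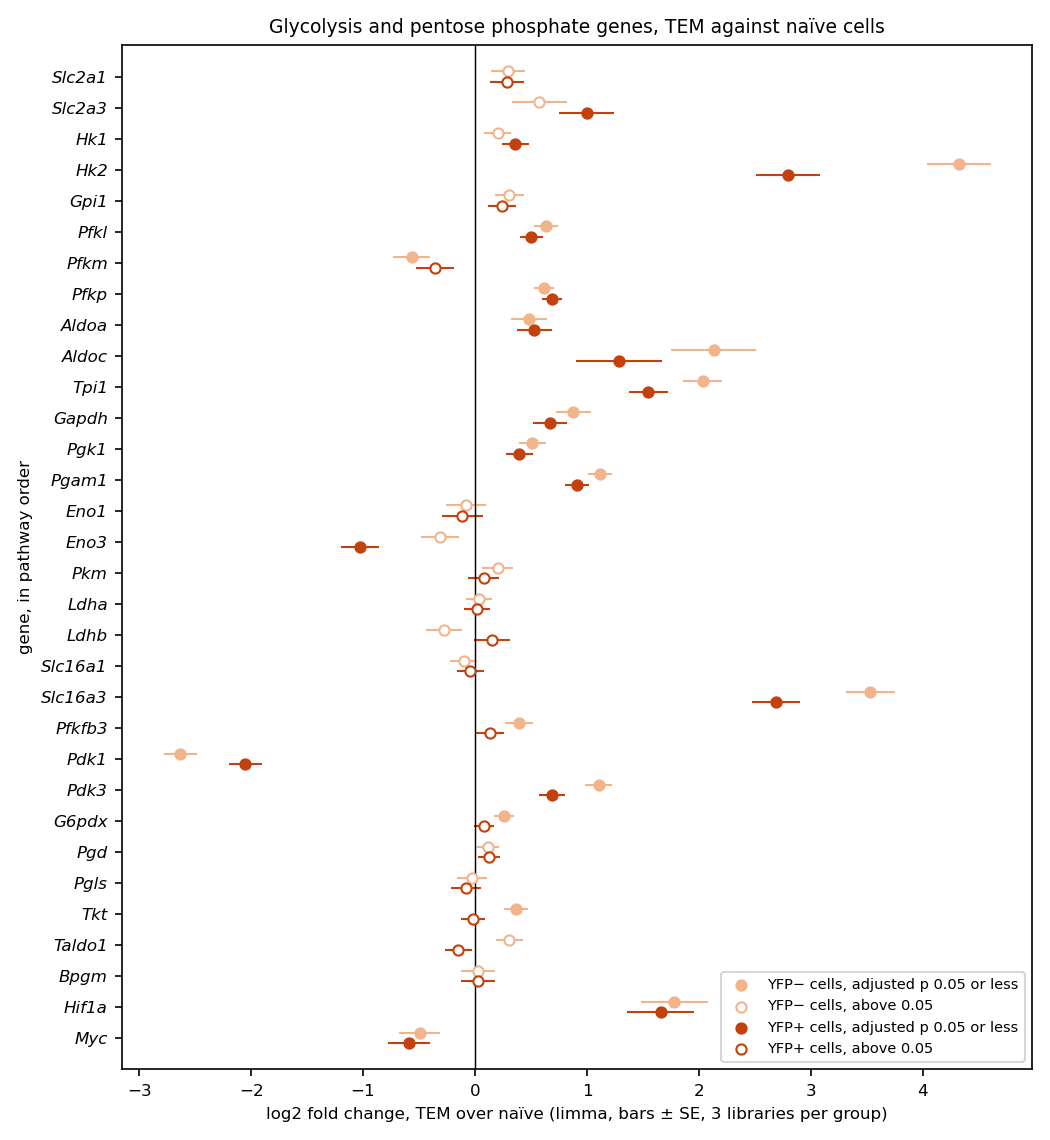
Log2 fold change of TEM over naïve cells (x axis, limma, bars ± SE, 3 libraries per group) for the 32 genes in pathway order, in YFP- (light) and YFP+ cells (dark), with filled points for an adjusted p of 0.05 or less. Hk2 (4.32 in YFP- and 2.79 in YFP+ cells) and Slc16a3 (3.53 and 2.69) lie farthest to the right, Pdk1 (-2.63 and -2.05) farthest to the left, and Ldha near zero.

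Glucose enters T cells through the facilitative transporters GLUT1 (Slc2a1) and GLUT3 (Slc2a3). Slc2a1 was at 2513, 2020.0 and 2319 (YFP- naïve libraries 1 to 3), 2586, 2139.9 and 2248 (YFP+ naïve), 3342, 2550.0 and 2543 (YFP- TEM) and 3500.1, 2395 and 2697 (YFP+ TEM). Its TEM and naïve libraries did not overlap among YFP- cells but did among YFP+ cells, and its fold changes of 0.29 ± 0.15 (SE, adjusted p = 0.126) and 0.29 ± 0.15 (SE, adjusted p = 0.148) did not pass. Slc2a3 was at 1543, 1579.7 and 1881 (YFP- naïve libraries 1 to 3), 1672, 1429 and 2052 (YFP+ naïve), 2445, 1945 and 3198 (YFP- TEM) and 3779, 2213 and 4656 (YFP+ TEM). All TEM libraries lay above all naïve libraries among YFP+ cells, and also among YFP- cells. The difference was 1.00 ± 0.25 (SE, adjusted p = 0.00627) in YFP+ cells and 0.58 ± 0.25 (SE, adjusted p = 0.0713) in YFP- cells. With the replicate number as a block both transporters passed in YFP- cells (Slc2a1 adjusted p = 0.00395, range over 29 alternative settings 7.67e-04 to 0.422, and Slc2a3 0.003, range 2.69e-04 to 0.289), and Slc2a1 also in YFP+ cells (adjusted p = 0.00546, range 0.00116 to 0.507). With the block, 19 of the 32 genes were called higher and 4 lower in YFP- TEM cells, against 33.0% and 25.3% of all genes, and 16 and 4 in YFP+ TEM cells, against 28.6% and 22.5%.

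Hexokinases trap glucose as glucose 6-phosphate. Hk2 (mm10 chr6:82725025-82774454), the isoform that many cells induce on growth signals, was at 38.0, 32.9 and 57.6 (YFP- naïve libraries 1 to 3), 79.1, 56.1 and 45.6 (YFP+ naïve), 874, 635 and 1108 (YFP- TEM) and 494, 368 and 388 (YFP+ TEM). Every TEM library exceeded every naïve library, with fitted levels 20.0-fold higher in YFP- cells (4.32 ± 0.29 (SE, adjusted p = 1.49e-07)) and 6.93-fold higher in YFP+ cells (2.79 ± 0.29 (SE, adjusted p = 7.73e-06)). Hk1, the constitutive isoform, was at 12637, 9668 and 12006 (YFP- naïve libraries 1 to 3), 13935, 10326 and 11952 (YFP+ naïve), 13161, 13396 and 12714 (YFP- TEM) and 16142, 14667 and 15373 (YFP+ TEM). Hk1 rose only slightly, by 0.36 ± 0.12 (SE, adjusted p = 0.0284) in YFP+ cells, a call that was lost without YFP+ naïve library 2 (0.111) or 3 (0.0692) or YFP+ TEM library 1 (0.0864) or 3 (0.0663). Its value in YFP- cells was 0.20 ± 0.12 (SE, adjusted p = 0.178). Per kilobase of exon, Hk1 still exceeded Hk2 in every group: Hk2 made up 0.531% ± 0.133 of the pair (mean ± SD, n = 3, YFP- naïve), 0.706% ± 0.143 (YFP+ naïve), 8.70% ± 2.37 (YFP- TEM) and 3.71% ± 0.418 (YFP+ TEM). The gene of glucose-6-phosphate isomerase, Gpi1, was at 21017 ± 2322 (YFP- naïve), 21563 ± 3429 (YFP+ naïve), 25915 ± 1016 (YFP- TEM) and 25406 ± 2878 (YFP+ TEM) (SD, n = 3), with log2 fold changes of 0.31 ± 0.13 (SE, adjusted p = 0.0629) and 0.24 ± 0.13 (SE, adjusted p = 0.151). With the replicate block Gpi1 was higher in YFP- (adjusted p = 0.00897, range 2.88e-05 to 0.295) and YFP+ TEM cells (0.0332, range 1.92e-04 to 0.425).

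Phosphofructokinase commits sugar to glycolysis and is encoded by 3 genes, and these did not move together. Pfkl was at 3033, 2691 and 3321 (YFP- naïve libraries 1 to 3), 3071, 2925 and 3675 (YFP+ naïve), 4842, 4709 and 4440.3 (YFP- TEM) and 4245, 4978 and 4450.4 (YFP+ TEM). Pfkp was at 4859, 4484 and 5118 (YFP- naïve libraries 1 to 3), 5328, 4444 and 5386 (YFP+ naïve), 6912, 7703 and 7523 (YFP- TEM) and 7662, 8389 and 8249.7 (YFP+ TEM). For both, every TEM library lay above every naïve library, and log2 fold changes in YFP- and YFP+ cells were 0.63 ± 0.11 (SE, adjusted p = 2.85e-04) and 0.50 ± 0.11 (SE, adjusted p = 0.00204) for Pfkl. For Pfkp they were 0.61 ± 0.09 (SE, adjusted p = 1.09e-04) and 0.69 ± 0.09 (SE, adjusted p = 6.39e-05). Pfkm, the muscle type, was at 646, 919 and 804 (YFP- naïve libraries 1 to 3), 569, 714 and 884 (YFP+ naïve), 503, 551 and 531 (YFP- TEM) and 517, 538 and 611 (YFP+ TEM). It fell in YFP- cells (-0.57 ± 0.17 (SE, adjusted p = 0.0134)), a call lost without YFP- naïve library 2 (adjusted p = 0.0599, range over alternatives 1.83e-04 to 0.116), and had a value of -0.36 ± 0.17 (SE, adjusted p = 0.106) in YFP+ cells, where it passed with the replicate block (adjusted p = 0.0298, range 0.00805 to 0.394). Its share of the 3 genes per kilobase went from 22.6% ± 4.12 in YFP- naïve and 20.0% ± 2.98 in YFP+ naïve to 11.2% ± 0.364 in YFP- TEM and 11.5% ± 0.989 in YFP+ TEM cells. Pfkfb3 makes a fructose bisphosphate, the strongest activator of phosphofructokinase, and was at 2569.9 ± 407 (YFP- naïve), 2729 ± 279 (YFP+ naïve), 3353 ± 347 (YFP- TEM) and 2996 ± 252 (YFP+ TEM). It rose in YFP- cells (0.39 ± 0.13 (SE, adjusted p = 0.0207)), not without YFP- naïve library 1 (0.0934) or YFP- TEM library 3 (0.0881, range over alternatives 2.62e-08 to 0.104). In YFP+ cells its value was 0.14 ± 0.13 (SE, adjusted p = 0.418).

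Aldolase cleaves fructose bisphosphate and triosephosphate isomerase interconverts the triose products. Aldoa, the main aldolase, was at 18142, 14412 and 20293 (YFP- naïve libraries 1 to 3), 20712, 14613 and 20189 (YFP+ naïve), 23193, 27663 and 22613 (YFP- TEM) and 28417, 27419 and 23630.3 (YFP+ TEM). It rose by 0.48 ± 0.16 (SE, adjusted p = 0.0228) in YFP- and 0.53 ± 0.16 (SE, adjusted p = 0.0175) in YFP+ cells. The first call was lost without naïve library 2 (0.0994) or TEM library 2 (0.0944) of the YFP- cells, and the second without YFP+ naïve library 2 (0.0676) or YFP+ TEM library 1 (0.06) or 2 (0.0506). Aldoc, best known from brain, was at 139, 55.2 and 96.8 (YFP- naïve libraries 1 to 3), 115, 78.7 and 86.5 (YFP+ naïve), 479.8, 459 and 292 (YFP- TEM) and 282, 309 and 132 (YFP+ TEM). It rose 4.38-fold in YFP- cells (2.13 ± 0.38 (SE, adjusted p = 5.26e-04)) and 2.43-fold in YFP+ cells (1.28 ± 0.38 (SE, adjusted p = 0.0173)), the latter not without YFP+ TEM library 1 (0.0647) or 2 (0.069, range over alternatives 2.89e-04 to 0.266). Even so Aldoc stayed at 1.47% ± 0.336 of aldolase RNA per kilobase in YFP- TEM and 0.789% ± 0.260 in YFP+ TEM cells, from 0.482% ± 0.177 and 0.451% ± 0.0610 in naïve cells. Tpi1 was at 1539, 1274 and 1562 (YFP- naïve libraries 1 to 3), 2048, 1342 and 1625 (YFP+ naïve), 5841, 7008 and 5139 (YFP- TEM) and 4762, 5814 and 4051 (YFP+ TEM). Every TEM library was above every naïve library, 4.09-fold in YFP- cells (2.03 ± 0.17 (SE, adjusted p = 1.08e-06)) and 2.93-fold in YFP+ cells (1.55 ± 0.17 (SE, adjusted p = 1.48e-05)), and in both TEM groups library 2 was the highest and library 3 the lowest.

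In the energy-yielding steps Gapdh, Pgk1 and Pgam1 rose, and the enolase genes Eno1 and Eno3 did not. A further enolase gene outside this list, Eno2, was called higher in TEM than naïve cells among YFP- cells. It was not called among YFP+ cells. Gapdh was at 7432 ± 1123 (YFP- naïve), 7721 ± 1560.5 (YFP+ naïve), 13619 ± 1523 (YFP- TEM) and 12167 ± 935 (YFP+ TEM) (SD, n = 3) and rose by 0.88 ± 0.15 (SE, adjusted p = 3.97e-04) in YFP- and 0.67 ± 0.15 (SE, adjusted p = 0.00348) in YFP+ cells. Pgk1 was at 6636 ± 369 (YFP- naïve), 6632 ± 1106 (YFP+ naïve), 9486 ± 1116 (YFP- TEM) and 8664 ± 645 (YFP+ TEM) and rose by 0.51 ± 0.12 (SE, adjusted p = 0.00389) and 0.40 ± 0.12 (SE, adjusted p = 0.02), the second not without YFP+ naïve library 2 (0.0797) or YFP+ TEM library 1 (0.0738). Pgam1 was at 2804 ± 289 (YFP- naïve), 3195 ± 420.3 (YFP+ naïve), 6062 ± 296 (YFP- TEM) and 5992 ± 424 (YFP+ TEM), and its TEM libraries lay above all naïve libraries, by 1.12 ± 0.11 (SE, adjusted p = 2.85e-06) and 0.91 ± 0.11 (SE, adjusted p = 2.23e-05). Eno1, the main enolase, was at 39772, 27106 and 38023 (YFP- naïve libraries 1 to 3), 42943, 27058 and 36168 (YFP+ naïve), 31869.8, 32903 and 33179 (YFP- TEM) and 36688, 28149.8 and 32225 (YFP+ TEM). Its groups overlapped, with values of -0.08 ± 0.18 (SE, adjusted p = 0.744) and -0.11 ± 0.18 (SE, adjusted p = 0.653), and the near-identical retrogene Eno1b, listed apart at 14421 to 23312 normalized counts, may share its reads. Eno3, the muscle enolase, was at 486, 613 and 494 (YFP- naïve libraries 1 to 3), 454, 599 and 551 (YFP+ naïve), 461, 340.1 and 493 (YFP- TEM) and 239, 272 and 272 (YFP+ TEM). It fell in YFP+ cells, 2.03-fold (-1.02 ± 0.17 (SE, adjusted p = 3.98e-04)), and had a value of -0.31 ± 0.17 (SE, adjusted p = 0.153) in YFP- cells. Bpgm, which makes the bisphosphoglycerate best known from red cells, was at 1431 ± 155 (YFP- naïve), 1479 ± 163 (YFP+ naïve), 1469 ± 283 (YFP- TEM) and 1509.6 ± 208 (YFP+ TEM), with values of 0.03 ± 0.15 (SE, adjusted p = 0.901) and 0.03 ± 0.15 (SE, adjusted p = 0.908). Markers of red cells (6 of 7 in the table) summed to 48.4 to 3858 normalized counts over the 12 libraries, and their part in Bpgm was not tested.

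At the end of the pathway the most abundant genes, Pkm and Ldha, did not pass the test. Pyruvate kinase, Pkm, was at 36518 ± 5101 (YFP- naïve), 37647 ± 6325 (YFP+ naïve), 41777 ± 2948 (YFP- TEM) and 39338 ± 2232 (YFP+ TEM), with log2 values of 0.20 ± 0.14 (SE, adjusted p = 0.263) and 0.08 ± 0.14 (SE, adjusted p = 0.703). Lactate dehydrogenase A, Ldha, was at 25105, 21965 and 24945 (YFP- naïve libraries 1 to 3), 28070.3, 20940.2 and 24144 (YFP+ naïve), 23233, 26486 and 23979 (YFP- TEM) and 26459, 23826 and 23223 (YFP+ TEM). Its TEM and naïve means differed by 0.03 ± 0.12 (SE, adjusted p = 0.831) in YFP- and 0.01 ± 0.12 (SE, adjusted p = 0.933) in YFP+ cells, far inside the spread of libraries. Ldhb, which favours the reverse reaction, was at 1654, 1485 and 1174 (YFP- naïve libraries 1 to 3), 1418, 1169.8 and 957 (YFP+ naïve), 1192, 1325 and 1026 (YFP- TEM) and 1364, 1352 and 1172 (YFP+ TEM), with values of -0.28 ± 0.16 (SE, adjusted p = 0.174) and 0.15 ± 0.16 (SE, adjusted p = 0.496). With the replicate block Ldhb was lower in YFP- TEM than YFP- naïve cells (adjusted p = 0.0196, range 0.0167 to 0.481). The lactate transporter genes Slc16a3 and Slc16a1 differed: Slc16a3 rose, and Slc16a1, like Ldha, did not pass. Slc16a3 (MCT4, mm10 chr11:120948484-120959000), the low-affinity exporter of highly glycolytic cells, was at 116, 93.4 and 106 (YFP- naïve libraries 1 to 3), 137, 178 and 116 (YFP+ naïve), 1439, 1339.8 and 948 (YFP- TEM) and 965, 1116 and 719.6 (YFP+ TEM). It was 11.6-fold higher in TEM cells among YFP- cells (3.53 ± 0.22 (SE, adjusted p = 8.57e-08)) and 6.45-fold higher among YFP+ cells (2.69 ± 0.22 (SE, adjusted p = 1.10e-06)). Slc16a1 (MCT1) was at 2028, 1904 and 1725 (YFP- naïve libraries 1 to 3), 2219.8, 1783 and 1741 (YFP+ naïve), 1851, 1875 and 1557 (YFP- TEM) and 2064, 1814 and 1681 (YFP+ TEM), with values of -0.10 ± 0.12 (SE, adjusted p = 0.516) and -0.04 ± 0.12 (SE, adjusted p = 0.803). Slc16a3 thus went from 4.45% ± 0.482 of the pair per kilobase in YFP- naïve and 5.94% ± 1.51 in YFP+ naïve to 36.7% ± 2.86 in YFP- TEM and 29.4% ± 3.99 in YFP+ TEM cells.

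Pdk1 and Pdk3, which encode kinases that shut pyruvate dehydrogenase, moved in opposite directions. Pdk1 (mm10 chr2:71873215-71903858) was at 33317, 27373 and 31057 (YFP- naïve libraries 1 to 3), 28809.8, 21747 and 25134 (YFP+ naïve), 5454, 4413 and 4949 (YFP- TEM) and 7132, 4849.6 and 6406 (YFP+ TEM). It fell 6.19-fold in YFP- cells (-2.63 ± 0.15 (SE, adjusted p = 4.43e-08)) and 4.14-fold in YFP+ cells (-2.05 ± 0.15 (SE, adjusted p = 4.06e-07)), with every TEM library below every naïve library. Pdk3 (mm10 chrX:93764616-93832150) was at 1052, 836 and 1015 (YFP- naïve libraries 1 to 3), 1117, 836 and 933 (YFP+ naïve), 1943, 2197 and 2085 (YFP- TEM) and 1581, 1576 and 1460.0 (YFP+ TEM). It rose 2.15-fold (1.11 ± 0.12 (SE, adjusted p = 7.89e-06)) and 1.61-fold (0.69 ± 0.12 (SE, adjusted p = 5.47e-04)). Of the RNA of Pdk1 and Pdk3 per kilobase, Pdk3 held 8.76% ± 0.270 (YFP- naïve), 10.4% ± 0.214 (YFP+ naïve), 56.1% ± 4.11 (YFP- TEM) and 43.6% ± 5.27 (YFP+ TEM). The other kinase genes of this family, Pdk2 and Pdk4, are not part of this share.

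**Figure D2:**
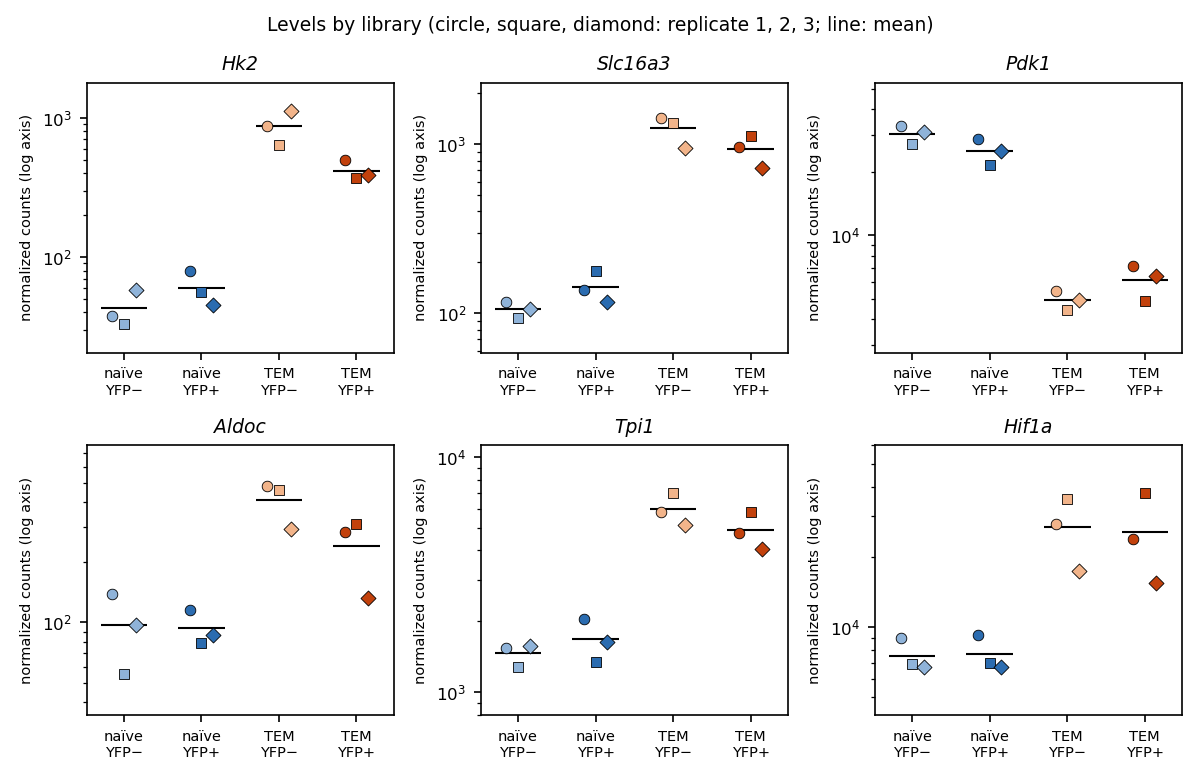
Normalized counts (log axes) of the 6 genes with the largest log2 fold changes between TEM and naïve YFP- cells, 1 point per library (circle, square and diamond for libraries 1, 2 and 3) with the group mean as a line. All 6 TEM libraries lie above all 6 naïve libraries for Hk2, Slc16a3, Tpi1 and Hif1a and below them for Pdk1, while the lowest TEM value of Aldoc (132) lies under its highest naïve value (139).

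**Figure D3:**
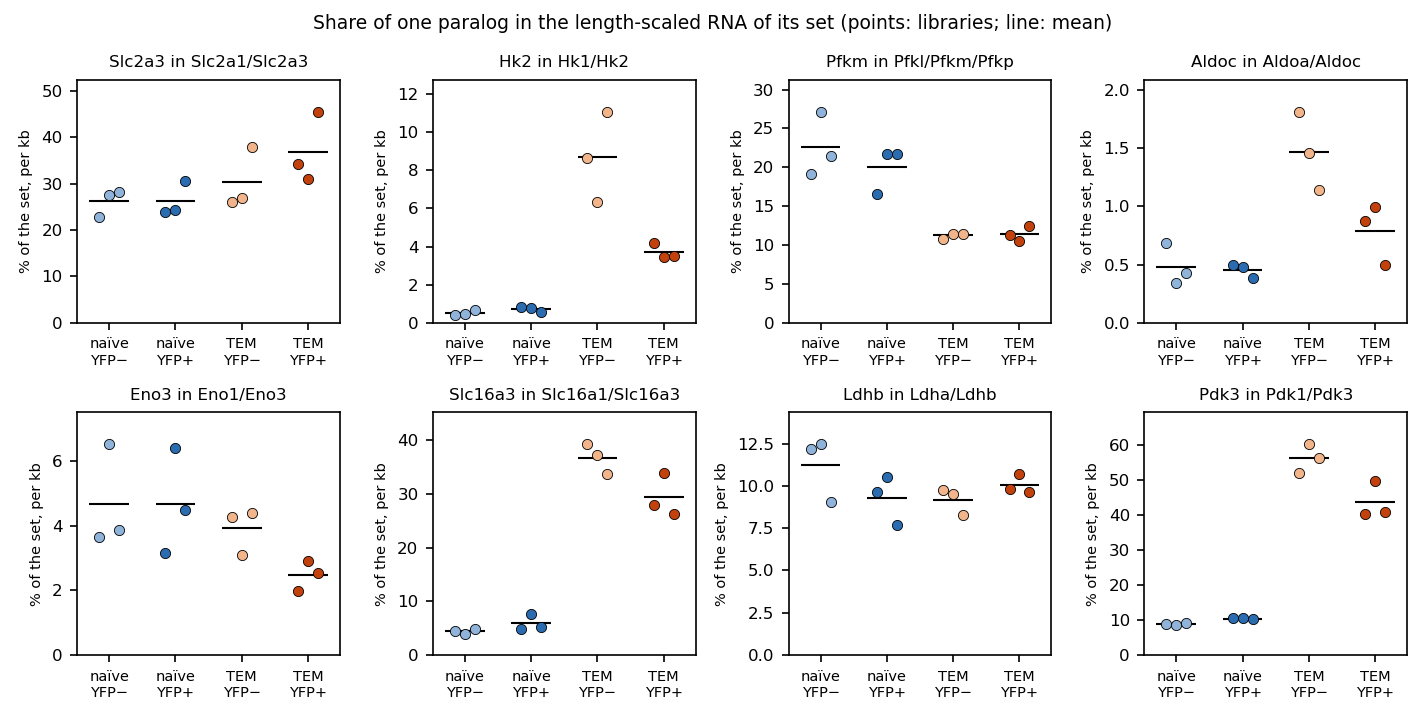
Share of 1 member of each set of paralogs in the RNA of the set, in percent after division by exon length, with 1 point per library and the group mean as a line. Slc16a3 and Pdk3 went from under 11% in every naïve library to over 26% in every TEM library, Hk2 stayed under 12%, and the Ldhb share lay at 7.71 to 12.5% in all groups.

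The pentose phosphate enzymes changed little. G6pdx, which commits glucose 6-phosphate to the oxidative branch, was at 2141 ± 171 (YFP- naïve), 2269 ± 218 (YFP+ naïve), 2556 ± 69.7 (YFP- TEM) and 2398 ± 134 (YFP+ TEM). It rose slightly in YFP- cells (0.26 ± 0.09 (SE, adjusted p = 0.0308)), not without YFP- naïve library 2 (0.122) or YFP- TEM library 2 (0.0771) or 3 (0.085), and its value in YFP+ cells was 0.08 ± 0.09 (SE, adjusted p = 0.498). Pgls and Pgd, the next enzymes of that branch, were at 2918 ± 371 (YFP- naïve), 2793 ± 434 (YFP+ naïve), 2850.4 ± 152 (YFP- TEM) and 2636 ± 399 (YFP+ TEM) and at 3353 ± 390.3 (YFP- naïve), 3344 ± 325 (YFP+ naïve), 3626 ± 132 (YFP- TEM) and 3634 ± 219.5 (YFP+ TEM). Their values were -0.03 ± 0.13 (SE, adjusted p = 0.88) and -0.08 ± 0.13 (SE, adjusted p = 0.652) for Pgls, and 0.12 ± 0.10 (SE, adjusted p = 0.344) and 0.12 ± 0.10 (SE, adjusted p = 0.348) for Pgd. Tkt and Taldo1, transketolase and transaldolase, exchange carbon units between sugars in the non-oxidative branch. Tkt was at 9741, 8460.0 and 10028 (YFP- naïve libraries 1 to 3), 10888, 8625 and 10183 (YFP+ naïve), 11995, 11671 and 12699.6 (YFP- TEM) and 10760.2, 8749.5 and 9830.4 (YFP+ TEM). It rose in YFP- cells (0.37 ± 0.11 (SE, adjusted p = 0.0127)), not without YFP- naïve library 2 (0.0546), and had a value of -0.02 ± 0.11 (SE, adjusted p = 0.923) in YFP+ cells. Taldo1 was at 7199.7, 6250.0 and 7841 (YFP- naïve libraries 1 to 3), 7743, 6094 and 7352 (YFP+ naïve), 8297, 8395 and 9586 (YFP- TEM) and 6976, 5536 and 6576 (YFP+ TEM). Its values were 0.31 ± 0.12 (SE, adjusted p = 0.0516) and -0.15 ± 0.12 (SE, adjusted p = 0.353), and with the replicate block it was higher in YFP- TEM than YFP- naïve cells (adjusted p = 0.00381, range 3.78e-04 to 0.187).

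The transcription factor genes went in opposite directions. Hif1a, the oxygen-regulated factor that drives many glycolytic genes, was at 8952, 6983 and 6755 (YFP- naïve libraries 1 to 3), 9227, 7041 and 6729 (YFP+ naïve), 27597, 35477 and 17475 (YFP- TEM) and 23806, 37583 and 15400.5 (YFP+ TEM). It rose 3.43-fold in YFP- cells (1.78 ± 0.30 (SE, adjusted p = 3.30e-04)) and 3.16-fold in YFP+ cells (1.66 ± 0.30 (SE, adjusted p = 7.53e-04)), with library 2 highest and library 3 lowest in both TEM groups, as for Tpi1. Myc was at 4344 ± 815 (YFP- naïve), 4581 ± 1057 (YFP+ naïve), 3058 ± 288 (YFP- TEM) and 3010.2 ± 496 (YFP+ TEM) and fell by 0.49 ± 0.18 (SE, adjusted p = 0.0411) on the log2 scale in YFP- cells and by 0.59 ± 0.18 (0.0214) in YFP+ cells. The Myc calls were weak: the first held in 1 of 6 fits that left out a library of its groups (adjusted p 0.0153 to 0.155), being lost without any of YFP- naïve libraries 2 and 3 and YFP- TEM libraries 1, 2 and 3. The second held in 2 of 6 (0.00284 to 0.0934), being lost without YFP+ naïve or TEM library 2 or 3. All 9 markers of dividing cells were higher in TEM than naïve cells in both comparisons. So were 8 of 9 plasmacytoid and 5 of 5 conventional dendritic cell markers in YFP- cells. In YFP+ cells 6 of 9 and 4 of 5 were higher, and 1 plasmacytoid marker, Pacsin1, was lower. Of 6 macrophage or neutrophil markers tested 4 were higher in YFP- cells, and 1 was higher and 1 lower in YFP+ cells. Of 6 B cell markers 1 was higher and 4 lower in YFP- cells, and 0 passed in YFP+ cells. Of 5 markers of NK or NKT cells 3 were higher in YFP- and 5 in YFP+ TEM cells. The part of such cells in the changes of these genes was not tested.

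The promoters of the 4 genes with the largest log2 changes in YFP- cells are shown, 3 that rose and 1 that fell. Aldoc (2.13) stood only just before Tpi1 (2.03) there, and in YFP+ cells Hif1a (1.66) and Tpi1 (1.55) had larger log2 changes than Aldoc (1.28). Windows run from 250 bases before to 50 bases after the start of transcription (RefSeq, GRCm38.p6), 5' to 3', and capitals mark ACGTG on either strand, the core of the element that HIF-1 binds. Hk2 is from chr6:82774405-82774704, minus strand, Slc16a3 from chr11:120948817-120949116, plus strand, Aldoc from chr11:78322823-78323122, plus strand, and Pdk1 from chr2:71872974-71873273, plus strand.
Hk2: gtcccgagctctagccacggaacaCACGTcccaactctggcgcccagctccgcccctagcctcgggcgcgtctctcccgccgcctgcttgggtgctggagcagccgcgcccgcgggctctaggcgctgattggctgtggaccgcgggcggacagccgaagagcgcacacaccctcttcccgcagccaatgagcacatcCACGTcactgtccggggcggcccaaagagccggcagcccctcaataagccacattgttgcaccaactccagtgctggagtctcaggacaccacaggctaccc
Slc16a3: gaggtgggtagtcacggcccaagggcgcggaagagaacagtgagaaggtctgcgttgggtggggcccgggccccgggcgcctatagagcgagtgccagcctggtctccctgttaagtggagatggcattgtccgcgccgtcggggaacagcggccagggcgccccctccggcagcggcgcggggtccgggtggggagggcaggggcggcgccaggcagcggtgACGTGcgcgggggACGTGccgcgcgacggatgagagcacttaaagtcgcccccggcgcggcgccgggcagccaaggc
Aldoc: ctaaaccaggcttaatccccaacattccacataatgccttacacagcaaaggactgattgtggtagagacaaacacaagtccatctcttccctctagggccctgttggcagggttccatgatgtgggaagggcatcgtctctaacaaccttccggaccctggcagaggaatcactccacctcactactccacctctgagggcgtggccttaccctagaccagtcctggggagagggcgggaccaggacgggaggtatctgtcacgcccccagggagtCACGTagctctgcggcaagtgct
Pdk1: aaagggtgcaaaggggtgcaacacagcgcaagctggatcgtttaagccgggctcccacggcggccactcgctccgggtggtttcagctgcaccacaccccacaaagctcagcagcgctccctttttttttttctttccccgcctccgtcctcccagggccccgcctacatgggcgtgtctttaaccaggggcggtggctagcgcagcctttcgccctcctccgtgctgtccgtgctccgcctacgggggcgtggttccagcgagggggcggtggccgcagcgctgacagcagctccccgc

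Hk2 and Slc16a3 each hold 2 matches, those of Slc16a3 on the strand shown and those of Hk2 on the other, Aldoc holds 1, and Pdk1 holds none in this window. The order is another for GCGTG, the other hypoxia core, of which Pdk1 and Aldoc hold 2 matches each and Hk2 and Slc16a3 none. Promoter windows were at hand for 30 of the 32 genes, all but Myc and Slc2a3. ACGTG was found on either strand in 17 of the 30 (56.7%), against 21.8% of all 27025 genes with a window. The longer CACGTG, the E-box that MYC and MAX bind, which contains ACGTG, was found in 5 (16.7%: Hif1a, Ldha, Pfkfb3, Pfkm and Slc16a1), against 8.09%, and GCGTG in 21 (70.0%), against 35.2%. A gene can have several windows, and these 30 genes had 44 while all genes had 32851. Counted by window, ACGTG was in 45.5% against 19.6%, CACGTG in 11.4% against 7.15%, and GCGTG in 59.1% against 32.4%. All genes here were not limited to those tested for expression, and base composition was not matched. A match describes letters and not a binding site. Among the genes with CACGTG, Ldha and Slc16a1 passed in neither comparison, and the window of Tpi1 held none of the 3 motifs. Sites outside the windows were not looked for, and the part of any motif in the changes was not tested.

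Levels per kilobase ordered the genes as follows. In YFP- naïve cells Pkm (7302 ± 1019.9 normalized counts per kb of exon, SD, n = 3), Ldha (7252 ± 534), Eno1 (6501 ± 1276) and Aldoa (6051 ± 1022) were the highest, with means ± SD that overlapped those of their neighbours. Pdk1 came next with 3931 ± 386, apart from Aldoa, and its band overlapped those of Taldo1 (3269 ± 369) and Gpi1 (3257 ± 360.0). Hk2 (7.18 ± 2.19), Slc16a3 (19.8 ± 2.16) and Aldoc (29.8 ± 12.9) were the lowest of the 32. In YFP- TEM cells Aldoa (8413 ± 949) and Pkm (8354 ± 589) led, Hif1a reached 4554 ± 1531 and Tpi1 2178 ± 343, while Pdk1 stood at 635 ± 66.9. Hk2 (146 ± 39.6), Slc16a3 (234 ± 48.8) and Aldoc (126 ± 31.5) stayed among the lowest, with Pfkm (158 ± 7.30), although they had risen the most.

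The same genes were also compared by their history of Csf2 expression. Between YFP+ and YFP- TEM cells 0 of the 32 were higher and 4 lower (12.5%), against 2.30% higher and 4.67% lower over all genes tested, and the 4 were Hk2, Eno3, Taldo1 and Pdk3. At an unadjusted p under 0.05, 0 were higher and 5 lower, the fifth being Tkt, which is 15.6% of the 32 against 17.1% of all genes. On reads recovered from the table, the counts at the adjusted threshold were 0 and 3 with edgeR and 0 and 4 with DESeq2. Over all genes edgeR called 436 higher and 690 lower of 15587, and DESeq2 569 and 1019 of 15549. YFP+ and YFP- TEM libraries did not overlap for 6 genes (18.8%), against 25.0% of all genes: Hk1 was above and Hk2, Eno3, Pdk3, Tkt and Taldo1 below in YFP+ cells. Same-numbered libraries deviated together, and with the replicate block 2 genes were higher (Pdk1, Slc2a3) and 5 lower (the 4 above and Tkt), against 5.22% and 6.77% of all genes.

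Hk2 was at 494, 368 and 388 normalized counts in YFP+ TEM and 874, 635 and 1108 in YFP- TEM libraries, which did not overlap. It was 2.06-fold lower in YFP+ cells (-1.04 ± 0.29 (SE, adjusted p = 0.0481)), and 0.0225 with the block. Eno3 was 1.63-fold lower (-0.71 ± 0.17 (SE, adjusted p = 0.0237), 0.017 with the block), at 239, 272 and 272 against 461, 340.1 and 493. Taldo1 (mm10 chr7:141392160-141402976) was 1.38-fold lower (-0.46 ± 0.12 (SE, adjusted p = 0.0364), 0.00202 with the block), at 6976, 5536 and 6576 against 8297, 8395 and 9586. Pdk3 was 1.35-fold lower (-0.43 ± 0.12 (SE, adjusted p = 0.0497), 0.0252 with the block), at 1581, 1576 and 1460.0 against 1943, 2197 and 2085. These calls stood close to the threshold, and most of the 6 fits that left out a TEM library did not make them. The adjusted p ranged from 1.46e-04 to 0.467 over 29 alternatives for Hk2, which was lost without YFP- TEM library 1 (0.149) or 3 (0.24) or any YFP+ TEM library (0.074, 0.132 and 0.154). For Eno3 it ranged from 0.00162 to 0.437, and the call was lost without YFP- TEM library 1 (0.102) or 3 (0.132) or YFP+ TEM library 1 (0.0989) or 3 (0.061). Taldo1 ranged from 3.07e-07 to 0.445, lost without any YFP- TEM library (0.0748, 0.0737 and 0.18) or YFP+ TEM library 2 (0.127) or 3 (0.0822). Pdk3 ranged from 0.00498 to 0.597 and was lost without any of the 6, at 0.0837 to 0.173.

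The 3 further genes called with the block changed by small amounts. Tkt was 1.24-fold lower in YFP+ TEM cells (log2 -0.31 ± 0.06 SE with the block, adjusted p = 0.00833, range 7.08e-05 to 0.779, and 0.121 without it), at 10760.2, 8749.5 and 9830.4 against 11995, 11671 and 12699.6. Pdk1 was 1.23-fold higher (log2 0.30 ± 0.06, 0.0102, range 7.78e-05 to 0.999, and 0.35 without it) and Slc2a3 1.37-fold higher (log2 0.45 ± 0.13, 0.0484, range 0.0114 to 0.841, and 0.42 without it). Both were higher in the YFP+ member of all 3 same-numbered pairs. Aldoc and Slc16a3 were lower in the YFP+ member of all 3 pairs but did not pass, with log2 values of -0.82 ± 0.38 (SE, adjusted p = 0.299) and -0.41 ± 0.22 (SE, adjusted p = 0.397). Tpi1, Gapdh and Pfkfb3 were also lower in all 3 pairs, and Hk1, Pfkp and Ldhb higher in all 3, and these did not pass either. The share of all genes with 3 pairs in the same direction was not counted. Tpi1 had a value of -0.30 ± 0.17 (SE, adjusted p = 0.441) and Hk1 of 0.23 ± 0.12 (SE, adjusted p = 0.371). Hif1a (-0.10 ± 0.30 (SE, adjusted p = 0.94)), Myc (-0.03 ± 0.18 (SE, adjusted p = 0.978)), Ldha (-0.00 ± 0.12 (SE, adjusted p = 0.997)), Slc2a1 (0.02 ± 0.15 (SE, adjusted p = 0.982)) and Pgd (0.00 ± 0.10 (SE, adjusted p = 0.998)) were near level.

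Markers of other cells also differed in the same comparison. Of 5 conventional dendritic cell markers 4 were lower in YFP+ than YFP- TEM cells and of 9 plasmacytoid ones 7, while all 5 markers of NK or NKT cells were higher, with sums of 2375 to 4891 against 392 to 589. Both CD8 T cell markers were lower (sums of 187 to 373 against 685 to 1490.3), and 2 of 6 B cell markers were higher (331 to 862 against 409 to 497). Siglech, a defining plasmacytoid marker, was at 3367, 1412 and 3263 in YFP- TEM and 118, 26.9 and 55.1 in YFP+ TEM libraries, and Clec9a, of conventional dendritic cells, at 143, 73.4 and 176 and 6.07, 3.11 and 5.70. Among the YFP- TEM libraries, Siglech, Clec9a, Hk2 and Eno3 were lowest in library 2, Taldo1 in library 1, and Pdk3 was highest in library 2. Macrophage or neutrophil markers (7 of 8 in the table) summed to 6023 to 11602 and 1611 to 3306, with 2 of the 6 tested lower, and 3 of 9 markers of dividing cells were lower in YFP+ cells. The part of any of these cells in the lower Hk2, Eno3, Taldo1, Pdk3 and Tkt was not tested.

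**Figure D4:**
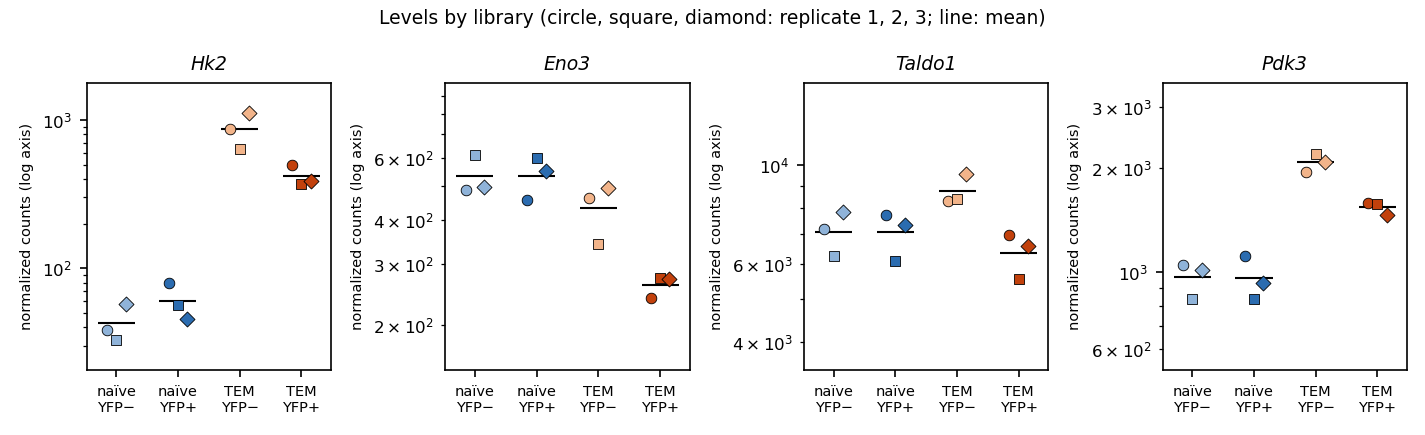
Normalized counts (log axes) of Hk2, Eno3, Taldo1 and Pdk3, the genes called between YFP+ and YFP- TEM cells, 1 point per library (circle, square and diamond for libraries 1, 2 and 3) with the group mean as a line. YFP+ TEM libraries lie below all YFP- TEM libraries for each gene, as in Pdk3 at 1460.0 to 1581 against 1943 to 2197, and the naïve groups overlap.

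In naïve cells 0 of the 32 genes differed between YFP+ and YFP- cells with limma, edgeR or DESeq2, and 0 had an unadjusted limma p under 0.05, against 0.00642% of all genes at the adjusted and 3.32% at the unadjusted threshold. The furthest from zero were Hk2 (0.49 ± 0.29 (SE, adjusted p = 1)), Slc16a3 (0.43 ± 0.22 (SE, adjusted p = 1)), Ldhb (-0.29 ± 0.16 (SE, adjusted p = 1)) and Pdk1 (-0.28 ± 0.15 (SE, adjusted p = 1)). Pdk1 was lower in the YFP+ member of all 3 pairs, by 0.21, 0.33 and 0.31 on the log2 scale. It was the only one called with DESeq2 and the block (adjusted p = 0.00383, range 0.00383 to 1), which called 69 of 11658 genes over all.

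**Figure D5:**
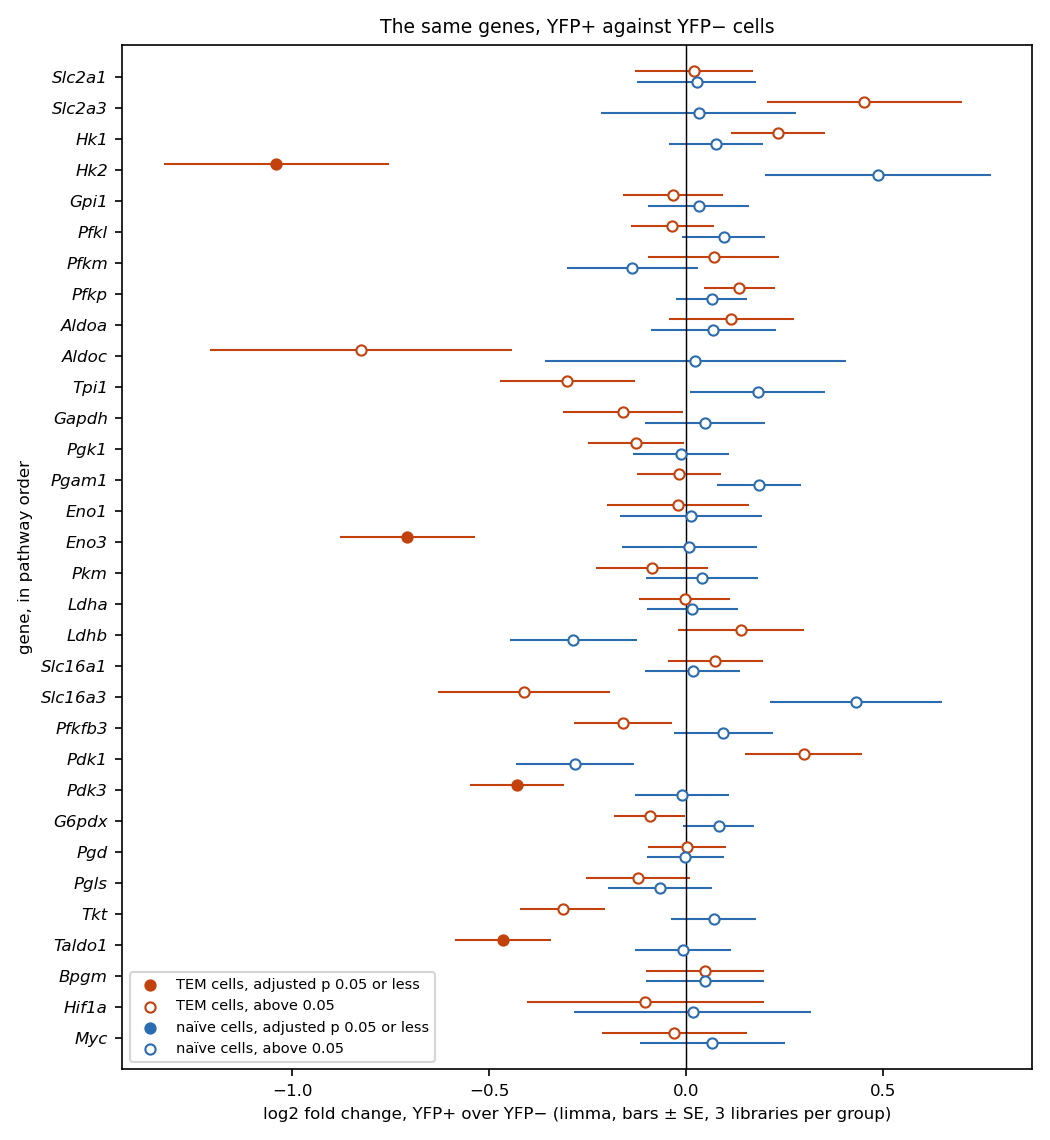
Log2 fold change of YFP+ over YFP- cells (x axis, limma, bars ± SE, 3 libraries per group) for the 32 genes, in TEM (red) and naïve cells (blue), with filled points for an adjusted p of 0.05 or less. Hk2 (-1.04), Eno3 (-0.71), Taldo1 (-0.46) and Pdk3 (-0.43) are filled in TEM cells, and none is in naïve cells.

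Whether the YFP difference itself differed between TEM and naïve cells was tested by the interaction of cell state and YFP. With limma 0 of the 32 genes passed, against 3.55% of all genes. An unadjusted limma p under 0.05 was found for 7 (21.9%, against 11.7% of all genes), Pdk1 upward and Hk2, Eno3, Pdk3, Slc16a3, Taldo1 and Tkt downward. The adjusted calls were 0 with edgeR and 1 with DESeq2, which called 480 of 15587 and 845 of 15246 genes over all. With the replicate block 4 passed (12.5%), against 5.71% of all genes. The interaction of Hk2 was -1.53 ± 0.36 (SE with the block, adjusted p = 0.0339, range over 28 alternatives 9.82e-04 to 0.503, and 0.064 without the block). For Pdk1 it was 0.58 ± 0.09 (0.00469, range 2.26e-08 to 1, and 0.224 without). For Taldo1 it was -0.46 ± 0.10 (0.0275, range 0.00175 to 0.906, and 0.247 without), and for Tkt -0.38 ± 0.09 (0.0317, range 0.00163 to 1, and 0.291 without). The same interaction is that of TEM minus naïve differences, which were 4.32 in YFP- and 2.79 in YFP+ cells for Hk2, -2.63 and -2.05 for Pdk1, 0.31 and -0.15 for Taldo1, and 0.37 and -0.02 for Tkt. Without the block, 4 of 5 conventional dendritic cell markers were called lower in the interaction. Of 9 plasmacytoid ones 7 were called lower and 1, Ccr9, higher. Of 5 markers of NK or NKT cells 3 were higher. Of 9 markers of dividing cells 2 were lower, as were 2 of 6 macrophage or neutrophil markers. The part of such cells in these interactions was not tested.

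Other genes of the same pathways were counted in lists that hold none of the 32, to be read against the 29.9% higher and 19.9% lower of all genes in YFP- cells and 24.7% and 16.7% in YFP+ cells. Of 19 further glycolysis genes and glucose or lactate transporters tested, 8 were higher (42.1%) and 3 lower (15.8%) in TEM than naïve YFP- cells, and 6 (31.6%) and 4 (21.1%) in YFP+ cells. They included Slc2a8, an intracellular glucose transporter (1.66 ± 0.14 (SE, adjusted p = 8.62e-07) and 2.08 ± 0.14 (SE, adjusted p = 1.77e-07)), Bsg, the chaperone of the lactate transporters (0.48 ± 0.08 (SE, adjusted p = 2.35e-04) and 0.61 ± 0.08 (SE, adjusted p = 4.38e-05)), and Ldhd, which oxidizes D-lactate (-3.42 ± 0.38 (SE, adjusted p = 9.34e-06) and -3.15 ± 0.38 (SE, adjusted p = 2.68e-05)). Pfkfb2, which like Pfkfb3 sets phosphofructokinase activity, fell (-0.89 ± 0.15 (SE, adjusted p = 3.33e-04) and -0.67 ± 0.15 (SE, adjusted p = 0.0034)). Slc2a8 was also higher in YFP+ than YFP- TEM cells (0.80 ± 0.14 (SE, adjusted p = 0.00301)) and Pgam2, the muscle mutase, lower (-2.26 ± 0.50 (SE, adjusted p = 0.0144)). Of 9 further pentose phosphate genes, 2 were higher (Rpia and Tktl1, 22.2%) and 3 lower (H6pd, Prps1 and Shpk, 33.3%) in YFP- cells, and 2 (22.2%) and 2 (22.2%) in YFP+ cells. Rpia makes ribose phosphate and rose by 0.48 ± 0.12 (SE, adjusted p = 0.00517) and 0.39 ± 0.12 (SE, adjusted p = 0.0207), and H6pd was higher in YFP+ than YFP- TEM cells (0.57 ± 0.12 (SE, adjusted p = 0.0132)). Of 11 genes of pyruvate entry into mitochondria, 0 were higher and 3 lower (Pdha1, Pdhb and Pdp1, 27.3%) in YFP- and 0 higher and 2 lower (Pdhb and Pdp1, 18.2%) in YFP+ cells, where Pdhb and Pdha1 are subunits of pyruvate dehydrogenase and Pdp1 the phosphatase that opposes PDK (-0.55 ± 0.12 (SE, adjusted p = 0.00215) and -0.34 ± 0.12 (SE, adjusted p = 0.0398)).

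Of 20 genes that control uptake, HIF and MYC, 7 were higher (35%) and 5 lower (25%) in YFP- cells and 8 (40.0%) and 3 (15%) in YFP+ cells, beside the same shares of all genes. Egln3, the HIF prolyl hydroxylase that HIF itself induces, rose by 3.39 ± 0.22 (SE, adjusted p = 1.13e-07) and 3.91 ± 0.22 (SE, adjusted p = 4.76e-08), Arrdc4, an arrestin that limits glucose uptake, by 3.89 ± 0.27 (SE, adjusted p = 2.03e-07) and 3.45 ± 0.27 (SE, adjusted p = 7.11e-07), and Mxd4, a partner of MAX that opposes MYC, by 1.34 ± 0.19 (SE, adjusted p = 7.22e-05) and 1.41 ± 0.19 (SE, adjusted p = 6.50e-05). Epas1, which encodes HIF-2α, fell by 2.59 ± 0.35 (SE, adjusted p = 5.13e-05) and by 1.63 ± 0.35 (SE, adjusted p = 0.0024) and was higher in YFP+ than YFP- TEM cells (1.34 ± 0.35 (SE, adjusted p = 0.035)). Mycl, a MYC relative known from dendritic cells, rose by 7.42 ± 0.48 (SE, adjusted p = 1.24e-07) in YFP- cells and was also called higher in YFP+ cells. It was lower in YFP+ than YFP- TEM cells (-3.95 ± 0.48 (SE, adjusted p = 4.33e-04)). There 4 of 5 conventional and 7 of 9 plasmacytoid dendritic cell markers were lower too, and the part of such cells in Mycl was not tested. Of 8 glycogen genes, 5 were higher (62.5%) and 1 lower (12.5%) in YFP- cells and 6 (75.0%) and 1 (12.5%) in YFP+ cells, among them glycogen synthase Gys1 (0.51 ± 0.12 (SE, adjusted p = 0.00349) and 0.42 ± 0.12 (SE, adjusted p = 0.0136)) and the phosphorylase Pygm, which fell (-2.53 ± 0.24 (SE, adjusted p = 3.24e-06) and -2.59 ± 0.24 (SE, adjusted p = 3.99e-06)). The exons of 13 of the 32 genes overlap an annotated neighbour, such as Ikbkg at G6pdx, Spsb2 at Tpi1 and Pitrm1 at Pfkp, and since the strand setting of the counting is not given in the sources used here, reads of such pairs may be mixed.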

How the data were processed

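Total RNA of sorted CD4+ T cells was sequenced with a stranded kit in 12 libraries, 3 for each of YFP- naïve, YFP+ naïve, YFP- TEM and YFP+ TEM cells. The authors mapped reads to mm10 with DRAGEN, counted them on genes with Rsubread, and deposited a signal, the counts of each library divided by its DESeq2 size factor. Annotation, strand setting and tool versions are not given in the sources used here. All values (100%) were whole reads within a tolerance of 0.01, and 0 columns were left unused. RefSeq named 16749 of 17523 genes by Entrez identifier, and exon lengths came from GENCODE M21.

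The 15587 genes that reached 5 normalized counts in 3 or more libraries were fitted on log2(value + 1) with limma 3.58.1 (R 4.3.3, with trend) as 4 group means with 8 residual degrees of freedom. Calls needed an adjusted p (Benjamini-Hochberg over all genes tested) of 0.05 or less and no minimum fold, fitted folds are powers of 2 of the log2 changes, and an exact permutation test of 3 against 3 libraries could not go below 0.1. Levels per kilobase divide by exon length. The code was tested on simulated data. All 32 genes are named, and values by library are given for paralog sets, for genes called between YFP+ and YFP- TEM cells or in the interaction, and for the 6 largest changes. The gene list, marker lists and tests were chosen with earlier results of these data known, and the lists are no independent evidence. The Tkt values by library were added after its values were seen.

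Alternatives were other priors, filters and scalings, edgeR 4.0.16 and DESeq2 1.42.0 on the recovered reads, fold thresholds, a replicate block, each library left out, and the reads of Eno1b added to Eno1 (chosen after seeing the data). Replicate numbers were checked as pairs: the deviations of same-numbered libraries from their group means had correlations of 0.137 to 0.232 for TEM against naïve YFP- cells, 0.18 to 0.356 for YFP+ against YFP- TEM cells and 0.306 to 0.491 for YFP+ against YFP- naïve cells, and of -0.0199 to 0.204 for TEM against naïve YFP+ cells. Since cells of 3 mice were sorted and Ddx3y marks number 3 in all 4 groups, the numbers were taken to pair the libraries of every comparison, least clearly for this last one. Replicates of a group correlated at 0.967 to 0.984 and their reads differed with a chi-square of 37 to 81 for each degree of freedom, so none was a copy of another.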

Additional observations from a re-analysis of the deposited data

Results flagged for a closer look

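The YFP difference differed between TEM and naïve cells for 4 genes when the replicate number entered limma as a block. The difference of the YFP effects (TEM minus naïve, log2) was -1.53 ± 0.36 (SE) for Hk2 (adjusted p = 0.0339), 0.58 ± 0.09 for Pdk1 (0.00469), -0.46 ± 0.10 for Taldo1 (0.0275) and -0.38 ± 0.09 for Tkt (0.0317). None of the 4 passed without the block (0.064, 0.224, 0.247 and 0.291). Hk2 was lower in YFP+ cells in 3 of 3 TEM pairs and higher in 2 of 3 naïve pairs, Pdk1 was higher in 3 of 3 TEM pairs and lower in 3 of 3 naïve pairs. Taldo1 and Tkt were lower in YFP+ cells in 3 of 3 TEM pairs. Among naïve pairs Taldo1 was higher in 1 of 3 and Tkt in 3 of 3. The block fit used these same values, so the pairs are no separate evidence. Groups of 3 libraries were not tested for outliers.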

How the results depend on the processing

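Of 160 fold changes (32 genes in 5 comparisons) 39 were called, 0 of their 1131 alternative values changed sign, and 23 passed in every alternative. Over all fold changes, 107 alternative values lost and 83 gained a call, and 233 of 3477 values that were not called as reported changed sign. Counts of called genes moved beyond 1.5 times in these settings. For TEM against naïve cells they were 18 in YFP- and 17 in YFP+ cells, 8 and 7 with a log2 fold change of 1 or more, and 5 and 3 with 2 or more. Shares over all genes were not counted at these fold thresholds. For YFP+ against YFP- TEM cells the count of 4 was 2 with a prior of 0.1, 2 with quantile normalization, 1 with no variance trend, 1 and 0 at log2 thresholds of 1 and 2, and 0 to 4 with a library, or a number in all groups, left out (2 without YFP- naïve library 1, 0 without YFP- TEM library 1 or 3, YFP+ TEM library 3, or number 1 or 3). Over all 15587 genes 1087 were called as reported, 836 with the prior of 0.1, 1492 with quantile normalization and 961 with no variance trend. With a library, or a number in all groups, left out, 123 to 1253 were called over all genes. With the replicate block the count among the 32 genes was 7 in limma and 7 in DESeq2, which called 1869 and 2412 of 15587 genes over all. In naïve cells DESeq2 with the replicate block called 1 gene in place of 0. For the interaction, called 0 times, the count was 1 with scaling to library totals, 1 with quantile normalization, 1 with DESeq2, 4 with the replicate block, 5 with DESeq2 and the block, and 0 to 1 with a library left out. Over all genes the interaction was called for 554 here. It was called for 550, 682, 845, 890 and 1237 in the same order, library omissions aside. Eno1b reads added to Eno1 changed no count. For TEM against naïve cells the block gave 23 calls in YFP- and 20 in YFP+ cells.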
